A study of Mus musculus with 6 samples.

Results

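Integrins and laminins, the receptors and ligands that tie cells to basement membranes, were measured as 33 genes of 18193 with an Affymetrix probe set (a group of oligonucleotide probes for a transcript) annotated to a single gene symbol. They were chosen by symbol alone: Itga or Itgb followed by digits or by one of the letters d, e, l, m, v and x, and Lama, Lamb or Lamc followed by a digit. That gave 23 integrin and 10 laminin genes on 72 probe sets. Reading the rule as a single digit gives 32 genes, since Itga10 then drops out.

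RNA came from the mouse cell line C2C12, myoblasts that can withdraw from the cell cycle and fuse to form myotubes. In the treated group the cells were kept for 72 h with 50 mM sodium pyruvate, in DMEM made without sodium pyruvate. In the untreated group they were kept for the same time in basal DMEM, and the sources used here do not state if that DMEM held pyruvate. Both media had 10% fetal bovine serum, 4 mM glutamine and 1% antibiotics, both groups were seeded in 100 mm dishes and labelled undifferentiated, and each had 3 samples on 1 Mouse Genome 430 2.0 array each. A control medium of equal sodium or osmolality was not analysed here. Whether samples came from separate cultures is not in the labels, so p-values reflect the spread among these samples alone, which could be technical.

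Markers of myoblasts, the labelled cell type, were present in both groups, and so were markers of myotubes. In the summed signal of the 9 measured myoblast markers, pyruvate arrays lay between 11720 and 12799 and untreated arrays between 11498 and 11828. The receptor subunit Chrna1, with mean signals of 5281 in pyruvate and 3787 in untreated cells, carried much of that sum. Without it, a choice made after its values were seen, the other 8 summed to 6667 to 6987 on pyruvate arrays and 7659 to 8043 on untreated arrays. Of the 8 myoblast markers tested 3 were higher (Chrna1, Myod1 and Ncam1) and 4 lower, with log2 changes of -0.65 for Myf5, -0.67 for Vcam1, -0.41 for Cdh2 and -0.39 for Cdh15. Among the myoblast markers Pax7, a satellite cell factor, was near the floor, with mean signals of 20.5 in pyruvate and 26.5 in untreated cells. The 15 myotube markers, with Myog and skeletal actin Acta1 among them, summed to 1960 to 2403 on pyruvate arrays and to 11098 to 11500 on untreated arrays, and 13 of the 14 tested were lower with pyruvate. Myotube RNA was thus present in cells labelled undifferentiated and was lower with pyruvate, and its part in the changes described below was not tested. In a bulk sample, fewer cells of a type and less RNA per cell cannot be told apart. Endothelial markers summed to no more than 231 and epithelial markers to no more than 513 on any array, in either group. The median signal of an array was 30.3 to 33, and all 6 arrays shared a trimmed mean of 150.

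An integrin is a pair of an alpha and a beta chain that spans the membrane, with the alpha chain setting much of which ligand is bound and the beta chain joining the receptor to the actin cytoskeleton through talin and kindlin. A laminin is a trimer of an alpha, a beta and a gamma chain that polymerises into the sheet of the basement membrane, where cells hold it through integrins and dystroglycan. Myoblasts use fibronectin, laminin and VCAM-binding integrins to migrate and align, and muscle fibres are anchored to laminin-211 in their basement membrane through alpha7 beta1 integrin and dystroglycan.

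Of the 33 genes, 18 had a brightest probe set at or above a mean log2(signal + 16) of 5.53, a signal of 30.3, which is the median of all non-control probe sets, and these were tested. The other 15 lay below it. With pyruvate, 7 of the 18 were higher and 6 lower at an adjusted p under 0.05, by limma, adjusted by the Benjamini-Hochberg method over the 22519 probe sets in the fit. Over all 10685 genes tested, 35.1% were called, 20.7% higher and 14.5% lower. The median log2 change was 0.12 over the 18 genes and 0.03 over all genes tested. For 12 of the 18 the groups' arrays did not overlap (8 higher, 4 lower), against 48.6% of all genes tested (28.6% higher, 20% lower). Counted by probe set, 12 of the 33 tested were higher and 7 lower, against 32.2% called over all probe sets. The members thus split between both directions. The highest log2 changes were those of Itgb5 (0.64) and Itgb7 (0.54), and the lowest were those of Itga4 (-1.16) and Itga6 (-0.59).

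**Figure D1:**
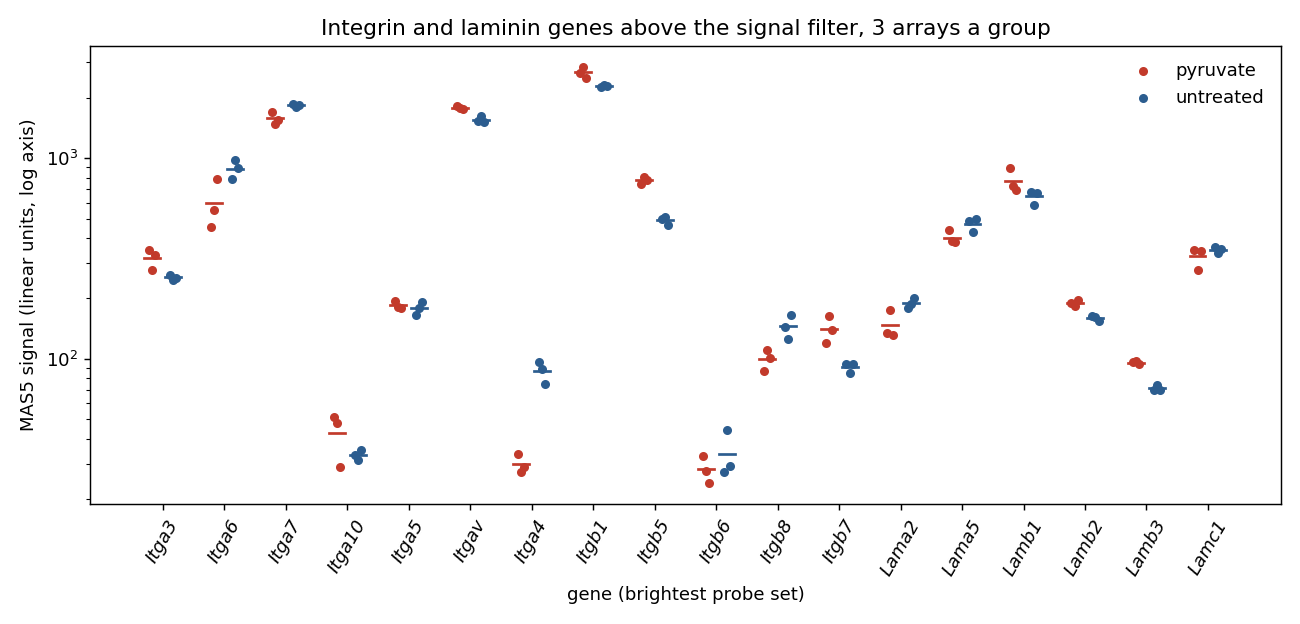
MAS5 signal (log axis) of the 18 integrin and laminin genes above the signal filter, on the brightest probe set of each; points are arrays, 3 of pyruvate (red, left) and 3 of untreated cells (blue, right) for each gene, and bars are group means. The groups stand clear of each other for Itga4, Itgb5 and Itgb7 and overlap for Itga5, Itga10 and Itgb6.

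**Figure D2:**
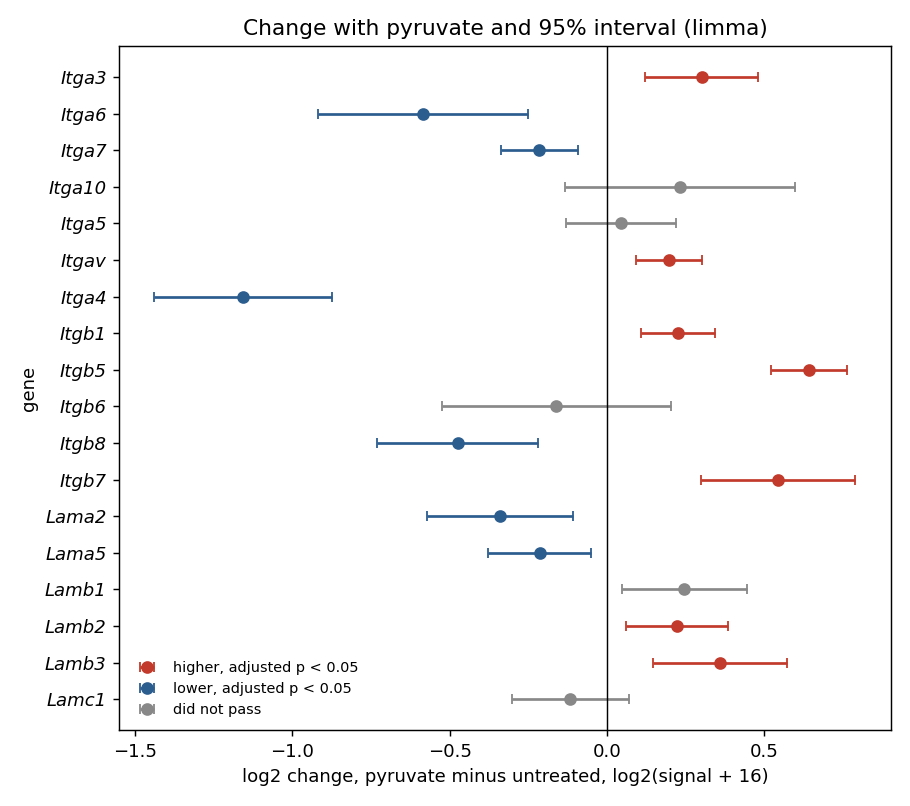
Log2 change (pyruvate minus untreated, on the log2(signal + 16) scale) with its 95% interval for the same 18 genes, ordered by role from laminin-binding alpha chains to laminin gamma chains. Red genes were higher and blue genes lower at an adjusted p under 0.05 by limma, and grey genes did not pass; Itga4 stands lowest at -1.16 and Itgb5 highest at 0.64.

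The alpha chains of laminin receptors moved in opposite directions. All 3 of them were measured, and 2 were lower and 1 higher with pyruvate. Itga6, a laminin-binding chain of myoblasts and of many epithelia, gave signals of 456, 551 and 787 on pyruvate arrays and 783, 981 and 894 on untreated arrays. The highest pyruvate array just reached the lowest untreated array, so the groups overlapped. Its log2 change was -0.59 ± 0.15 (SE; adjusted p = 0.012). A second Itga6 probe set separated the groups cleanly, with 223, 203 and 199 in pyruvate and 307, 299 and 284 in untreated cells. There the log2 change was -0.48 ± 0.07 (adjusted p = 3.5e-04), so both probe sets were called lower. Without untreated replicate 2 the brightest one no longer passed (-0.51, adjusted p = 0.0521). The brightest one also missed the threshold in limma with robust variances (adjusted p = 0.06), without the variance trend (0.058) and without the signal filter (0.066).

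Itga7, a laminin receptor chain of skeletal muscle, gave 1698, 1481 and 1549.9 on pyruvate arrays against 1854, 1792 and 1841 on untreated arrays. Every pyruvate array was below every untreated array, but the difference was small, a log2 change of -0.21 ± 0.06 (SE; adjusted p = 0.012). Without untreated replicate 1 it missed the threshold (-0.20, adjusted p = 0.051), as it did in limma without the variance trend (adjusted p = 0.062). For comparison, the median log2 change of the 573 probe sets within 0.25 of its mean level was 0.06. The median over the 14 tested myotube markers was -2.28.

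Itga3, a laminin receptor chain known from epithelia and kidney, was higher. It gave 349, 279 and 328 on pyruvate arrays and 263, 247 and 254 on untreated arrays, with no overlap. The log2 change was 0.30 ± 0.08 (SE; adjusted p = 0.015), and it was 0.58 (adjusted p = 0.0016) on another probe set and 0.23 (adjusted p = 0.12) on the remaining one, all 3 with no overlap between the groups. Without untreated replicate 2, pyruvate replicate 1 or pyruvate replicate 3 the brightest probe set just missed the threshold and lost its call. The log2 changes were then 0.28, 0.23 and 0.28, with adjusted p-values of 0.0531, 0.0502 and 0.0545 by limma.

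Itga4, which pairs with beta1 or beta7 to bind VCAM-1 and fibronectin and has been studied in myoblast fusion, fell most. Its brightest probe set gave 33.6, 27.5 and 29.1 on pyruvate arrays, against 96.2, 89.4 and 74.9 on untreated arrays. All pyruvate arrays lay far below all untreated arrays. The log2 change was -1.16 ± 0.13 (SE; adjusted p = 6.0e-05). Its size depends on the constant added before taking logs, being -1.50 with 1 and -0.68 with 64 in place of 16, and it was called with each. The pyruvate mean of 30.1 was itself under the filter value of 30.3, so the fold is limited by the floor of the arrays and the gene passed the filter through its untreated level. The other 4 Itga4 probe sets were dimmer, below the filter, and their mean signals were also lower with pyruvate. In the fit without the filter 2 of them passed, at -1.34 (adjusted p = 7.0e-04; mean signals of 2.27 in pyruvate and 30.2 in untreated cells) and -1.14 (adjusted p = 0.0094). In that fit 1.73% of probe sets below the filter were called. Vcam1, which encodes a ligand of the alpha4 integrins, fell by 0.67 on the log2 scale (adjusted p = 2.1e-05), with mean signals of 472 in pyruvate and 757 in untreated cells.

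Among the chains that recognise the RGD sequence of fibronectin and vitronectin, Itgav and its partner Itgb5 were both higher, by different amounts. Itgb5, the beta chain of the alphav beta5 vitronectin receptor, gave 746, 801 and 774 on pyruvate arrays and 497, 510.1 and 465 on untreated arrays. The groups were far apart relative to their spread, with means of 774 ± 27.3 in pyruvate and 490.5 ± 23.2 in untreated cells (SD, n = 3 arrays each). The log2 change was 0.64 ± 0.06 (SE; adjusted p = 1.0e-05 by limma), a fold of 1.56. All 4 Itgb5 probe sets were called higher, with log2 changes from 0.58 to 0.94, so the brightest gave one of the smaller estimates. The brightest carries the suffix that Affymetrix gives to probe sets that may also bind other transcripts. The largest change came from a probe set without that suffix, with 788, 797.5 and 699 in pyruvate and 404, 371 and 391 in untreated cells.

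Itgav, the alpha chain shared by the vitronectin receptors, gave 1821, 1769 and 1753 on pyruvate arrays and 1531, 1615 and 1509 on untreated arrays. The groups did not overlap, but the log2 change was only 0.20 ± 0.05 (SE; adjusted p = 0.0083), and 2 further probe sets did not pass (0.06 and 0.15; adjusted p = 0.52 and 0.38). Bright probe sets as a class were higher with pyruvate. The 864 with a mean log2 level of at least 11 had a median log2 change of 0.23, and the 3704 between 9 and 11 had a median of 0.01. Among the 589 probe sets within 0.25 of the Itgav level the median was 0.05. After cyclic loess normalization, which evens out such a trend with brightness, the Itgav change was 0.11 (adjusted p = 0.1). With quantile normalization it was 0.15 (adjusted p = 0.021).

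Itgb8, the other alphav partner that changed, fell. This chain is known for the activation of latent TGF-beta. It gave 87.1, 111 and 101 on pyruvate arrays and 144, 125 and 166 on untreated arrays, with no overlap. This gave a log2 change of -0.47 ± 0.12 (SE; adjusted p = 0.0094). Itgb6, another TGF-beta-activating partner, was dim, with 24.1 to 32.7 in pyruvate and 27.5 to 44.5 in untreated cells. It did not pass, and its log2 change of -0.16 had a 95% interval from -0.53 to 0.20. Itgb3 lay below the filter, with mean signals of 35.8 in pyruvate and 26.1 in untreated cells. Itga5, the fibronectin receptor chain that pairs with beta1, gave 179 to 194 in pyruvate and 166 to 192 in untreated cells. These overlapped throughout, at a log2 change of 0.04 with a 95% interval from -0.13 to 0.22 (adjusted p = 0.71).

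Itgb1, the beta chain that most of these alpha chains share, was called higher on its brightest probe set, which gave 2658, 2850 and 2508 on pyruvate arrays and 2259, 2306 and 2275 on untreated arrays. No arrays of the groups overlapped. The log2 change was 0.23 ± 0.05 (SE; adjusted p = 0.0079). At that brightness, however, the median of 370 probe sets was 0.12, and the Itgb1 change was 0.12 after quantile normalization (adjusted p = 0.046) and 0.10 after cyclic loess normalization (adjusted p = 0.12). A second bright probe set, with 2098, 2319 and 2202 in pyruvate and 2041, 2047 and 1986 in untreated cells, was at 0.12 (adjusted p = 0.086). A dimmer one, with mean signals of 111 in pyruvate and 139 in untreated cells, was at -0.29 (adjusted p = 0.082). That dimmer one carries the suffix for probe sets that may also bind other transcripts. The call for Itgb1 therefore rests on 1 probe set of the 3 tested and on how the arrays are scaled.

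**Figure D3:**
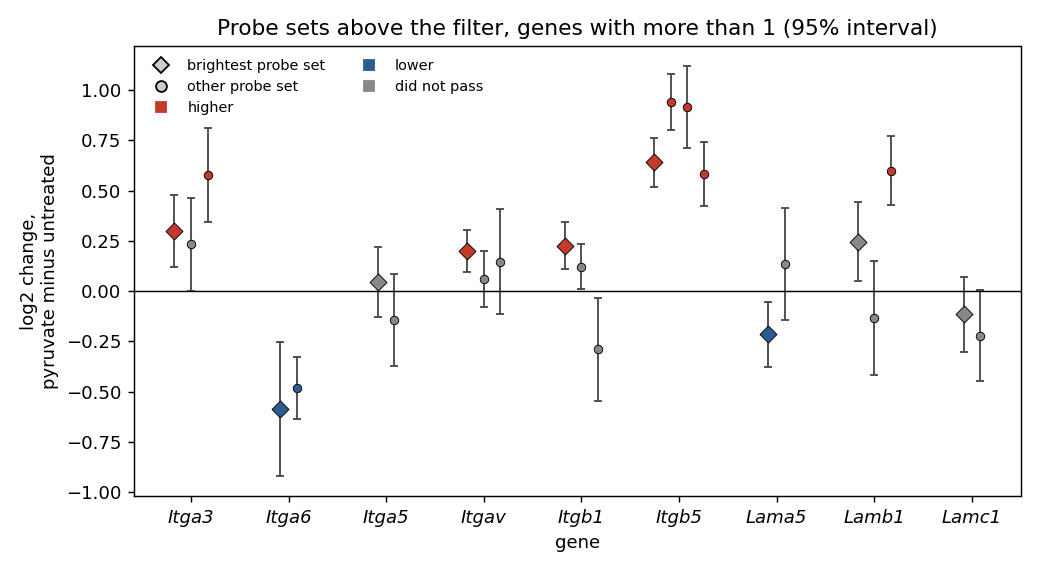
Log2 change (pyruvate minus untreated) with its 95% interval for every probe set above the signal filter, for the 9 genes with more than 1; diamonds are the brightest probe set of a gene and circles the others, red called higher, blue called lower and grey not passed. All 4 probe sets of Itgb5 and both of Itga6 were called the same way, whereas those of Itgb1 and Lamb1 lie on both sides of 0.

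**Figure D4:**
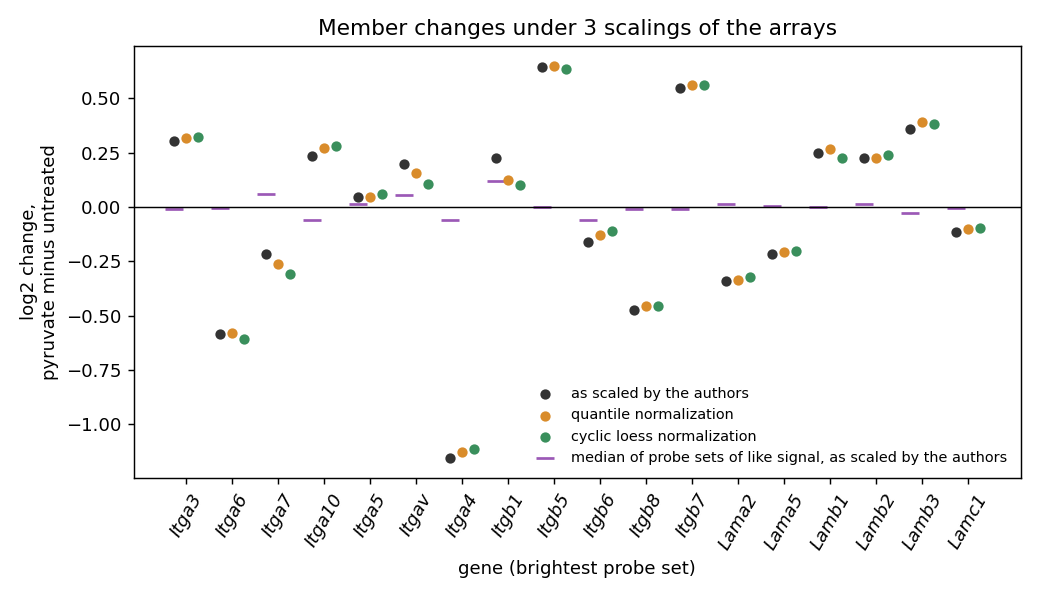
Log2 change of the brightest probe set of each gene as scaled by the authors (black), after quantile normalization (orange) and after cyclic loess normalization (green); purple dashes give the median change of all probe sets of like signal as scaled by the authors. The 3 scalings stay close for Itgb5 and Itga4, while the changes of the bright genes Itgb1 and Itgav shrink to 0.10 and 0.11 under cyclic loess.

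Itgb7, a beta chain best known from lymphocytes, where it pairs with alpha4 and alphaE, was higher. It gave 120, 163 and 140 on pyruvate arrays and 93.9, 85.0 and 94.4 on untreated arrays, with no overlap. Its log2 change was 0.54 ± 0.11 (SE; adjusted p = 0.0033). Of its partners, Itga4 was lower, and Itgae was below the filter, with mean signals of 27.6 in pyruvate and 20.4 in untreated cells. The other leukocyte integrins measured, Itgal, Itgam, Itgax and Itgb2, were all below the filter, and limma called none of them in the fit without it. That fit called 1.73% of all probe sets below the filter. The 11 leukocyte markers measured summed to 480 to 523 on pyruvate arrays and 340 to 392 on untreated arrays, a separation carried by 1 gene, Cd14. Without it, chosen after its values were seen, the other 10 summed to 249 to 291 on pyruvate arrays and 225 to 285 on untreated arrays, which overlapped. Of the 11, Cd14, a co-receptor for lipopolysaccharide, was called higher (0.95, adjusted p = 9.6e-06), the other 3 tested did not pass, and 7 were below the filter, with mean signals of 7.73 in pyruvate and 10.7 in untreated cells for Ptprc, the pan-leukocyte antigen CD45.

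The 3 collagen receptor chains measured were dim. Itga1 and Itga2 lay below the filter, with mean signals of no more than 15.8 in either group. Itga10 passed it, with 51.6, 48.0 and 29.0 in pyruvate and 33.2, 31.5 and 35.4 in untreated cells, but pyruvate replicate 3 was lower than every untreated array. Its log2 change of 0.23 had a 95% interval from -0.13 to 0.60 (adjusted p = 0.32). Itga8, Itga9 and Itgb4 were below the filter as well. In limma's fit without the filter 0 of the 15 genes below it passed, beside 1.73% of all probe sets below it. With so low a share, the absence of calls says little about these genes. Itga1 and Itgam had an unadjusted p under 0.05 in that fit, and the matching share over all probe sets was not taken. The lowest adjusted p was that of Itga1 (0.067), with 0.9, 1 and 1.5 in pyruvate and 3.3, 9.3 and 6.6 in untreated cells, all near the floor. A low signal does not show that a gene is silent.

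For the chains with the largest called changes that have an entry in RefSeq's promoter table (build GRCm38.p6), the 250 bases before the annotated start are shown, since Itgb5 and Itgb7 rose while Itga4 and Itgb8 fell. Capitals mark matches on either strand to the E-box CANNTG (the letters that MyoD, myogenin and other bHLH factors can bind), the GC box GGGCGG, the AP-1 letters TGANTCA or the TEAD letters CATTCC. An E-box and another motif may overlap, and no such overlap was removed. The Itga4 window is chr2:79255176-79255425 (plus strand), Itgb5 is chr16:33829415-33829664 (plus), Itgb7 is chr15:102231936-102232185 (minus) and Itgb8 is chr12:119238277-119238526 (minus).
Itga4: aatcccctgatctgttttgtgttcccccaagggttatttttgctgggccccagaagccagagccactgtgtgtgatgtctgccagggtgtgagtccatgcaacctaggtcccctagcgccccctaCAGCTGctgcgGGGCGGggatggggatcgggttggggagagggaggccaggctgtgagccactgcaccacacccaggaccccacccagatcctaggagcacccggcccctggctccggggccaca
Itgb5: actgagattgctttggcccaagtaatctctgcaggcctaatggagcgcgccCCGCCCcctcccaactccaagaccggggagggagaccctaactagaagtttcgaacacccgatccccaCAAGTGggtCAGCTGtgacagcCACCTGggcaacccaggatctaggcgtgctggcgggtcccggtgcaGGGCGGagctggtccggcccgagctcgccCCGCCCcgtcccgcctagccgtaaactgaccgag
Itgb7: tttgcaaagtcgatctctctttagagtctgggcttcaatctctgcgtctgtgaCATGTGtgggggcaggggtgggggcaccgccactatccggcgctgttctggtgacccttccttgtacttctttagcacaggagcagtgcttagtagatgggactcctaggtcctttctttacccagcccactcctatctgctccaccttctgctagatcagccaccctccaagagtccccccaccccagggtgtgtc
Itgb8: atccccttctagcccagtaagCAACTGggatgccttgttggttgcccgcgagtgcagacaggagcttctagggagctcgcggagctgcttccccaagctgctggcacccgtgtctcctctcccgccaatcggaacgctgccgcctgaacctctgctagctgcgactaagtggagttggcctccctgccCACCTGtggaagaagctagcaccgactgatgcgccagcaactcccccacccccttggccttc

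The Itgb5 window held 3 E-boxes and 3 GC boxes, that of Itga4 1 of each, that of Itgb7 1 E-box and that of Itgb8 2 E-boxes. None of the 4 held the AP-1 or TEAD letters. These motifs are common. An E-box was found in 66.2% of the 32851 windows of the same length in the table, a GC box in 32.7%, the TEAD letters in 12.6% and the AP-1 letters in 6.75%. Of the 33 genes, 21 had an entry, with 24 windows in all, of which 19 held an E-box, 9 a GC box, 3 the TEAD letters and 1 the AP-1 letters. Matches were thus present in windows of genes that rose and of genes that fell, and a match is only a run of letters.

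Of the 6 laminin chains tested, Lama2 and Lama5 were called lower, Lamb2 and Lamb3 were called higher, and Lamb1 and Lamc1 were not called. Lama2, the alpha chain of laminin-211 in the muscle basement membrane, gave 134, 176 and 132 on pyruvate arrays and 179, 188 and 201 on untreated arrays. The groups did not overlap, though pyruvate replicate 2 came close. Limma put the log2 change at -0.34 ± 0.11 (SE; adjusted p = 0.030). Lama2 lost the call without untreated replicate 2 or 3 or pyruvate replicate 1 or 3, with log2 changes of -0.34, -0.30, -0.28 and -0.27 and adjusted p-values of 0.07 to 0.11.

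Lama5, the alpha chain of laminin-511, which is found in many adult basement membranes, gave 439.5, 386.5 and 380.1 on pyruvate arrays and 484, 428 and 495 on untreated arrays. Pyruvate replicate 1 was above the lowest untreated array. On the log2 scale it changed by -0.21 ± 0.07 (SE; adjusted p = 0.046). A second Lama5 probe set above the filter was at 0.13 (adjusted p = 0.46), on the other side of 0, and the dimmest, below it, was at -0.73 in the fit without the filter (adjusted p = 0.015; mean signals of 2.57 in pyruvate and 15 in untreated cells). Lama5 missed the threshold without untreated replicate 1 or 3 or pyruvate replicate 2 or 3, with adjusted p-values from 0.13 to 0.15. It also missed it after median centring (-0.18, adjusted p = 0.13) and cyclic loess normalization (-0.20, adjusted p = 0.0537). Averaged over its 2 probe sets above the filter, Lama5 was at -0.04 (adjusted p = 0.77). Its adjusted p was the highest of the 13 called genes. Lama1, Lama3 and Lama4 were below the filter, and the brighter Lama4 probe set had mean signals of 1.87 in pyruvate and 1.63 in untreated cells.

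Lamb3, the beta chain of laminin-332, which is known mainly from epithelia, gave 96.1, 97.2 and 94.4 on pyruvate arrays and 70.2, 73.9 and 69.8 on untreated arrays. Both groups were tight and far apart. In log2 units the change was 0.36 ± 0.10 (SE; adjusted p = 0.015). Without untreated replicate 1 it was 0.35 (adjusted p = 0.0546). Lama3, the alpha chain with which it forms laminin-332, was below the filter. The epithelial markers summed to 404 to 446 on pyruvate arrays and 480 to 513 on untreated arrays, and 1 of the 4 tested was higher (Krt14, 1.12) and 2 were lower (Epcam, -0.48, and Krt19, -0.55).

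Lamb2, a beta chain known from synaptic basement membranes of muscle, gave 189, 183 and 197 on pyruvate arrays and 164, 161 and 154 on untreated arrays, with no overlap. Its log2 change was 0.22 ± 0.07 (SE; adjusted p = 0.038). Leaving out any array other than pyruvate replicate 2 raised the adjusted p above 0.05, to between 0.063 and 0.11, at log2 changes between 0.20 and 0.24.

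Lamb1, the beta chain of laminin-111, laminin-211 and laminin-511, gave 889.9, 726 and 694 on pyruvate arrays and 682, 581 and 672 on untreated arrays. Every pyruvate array was above every untreated array, but the spread was wide and the log2 change of 0.25 ± 0.09 (SE) did not pass (adjusted p = 0.057). It passed in 6 of 18 alternatives. Among these were the fit without pyruvate replicate 3 (0.31, adjusted p = 0.036) and quantile normalization (0.27, adjusted p = 0.043). Another was the mean over its probe sets above the filter (0.24, adjusted p = 0.023). A dimmer probe set gave 414, 339 and 385 in pyruvate and 231, 248 and 254 in untreated cells, a log2 change of 0.60 (adjusted p = 1.7e-04), and another was at -0.13 (adjusted p = 0.46). The 3 probe sets therefore differ in the size and the sign of the Lamb1 change, and the negative one did not pass.

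Lamc1, the gamma chain shared by most laminins, gave 277 to 349 on pyruvate arrays and 337 to 362 on untreated arrays. The groups overlapped, and the log2 change of -0.12 had a 95% interval from -0.30 to 0.07 (adjusted p = 0.33). Lamc3 was below the filter. For laminin-211 and laminin-511 the chains thus gave different readings: the alpha chain was called lower, Lamb1 was not called, and Lamc1 was not called. The differences between these changes were not tested.

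The proteins around these receptors and ligands were read from lists of adhesion genes. Among intracellular focal adhesion proteins, which link integrins to actin, 14 of 30 tested were higher and 1 lower, with a median log2 change of 0.14, beside 20.7% higher and 14.5% lower over all genes. Sorbs3, which encodes vinexin, rose by 0.50 (adjusted p = 0.0029), the LIM adaptor Lims2 by 0.44 (adjusted p = 0.0011), the kinase Src by 0.44 (adjusted p = 0.011) and the zyxin relative Lpp by 0.40 (adjusted p = 2.6e-04). Parvb, beta-parvin, was the lower one, at -0.25 (adjusted p = 0.0497), chosen here after its value was seen. The talin gene Tln1 (0.13, adjusted p = 0.1), vinculin Vcl (0.07, adjusted p = 0.38), Ilk (0.06, adjusted p = 0.47), paxillin Pxn (0.01, adjusted p = 0.89) and the kindlin Fermt2 (0.00, adjusted p = 0.99), also chosen after their values were seen, did not pass. After quantile normalization Vcl was called lower (-0.18, adjusted p = 0.013), on the other side of 0, and Parvb missed the threshold (-0.24, adjusted p = 0.062). The number higher was 10 after quantile and 9 after cyclic loess normalization. The shares over all genes given above are from the main fit, and those after either normalization were not taken.

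Genes for integrin ligands had 8 of 15 tested higher and 2 lower, with a median log2 change of 0.29, beside 20.7% higher and 14.5% lower over all genes tested. Fbln5, an elastic fibre protein that binds integrins, gave 68.2, 74.7 and 77.6 on pyruvate arrays and 29.8, 30.9 and 29.2 on untreated arrays, so its untreated level was at the filter value. Its log2 change was 0.96 ± 0.12 (SE; adjusted p = 1.2e-04). Thrombospondin-1, Thbs1, rose by 0.69 (adjusted p = 1.4e-06), with mean signals of 1915 in pyruvate and 1179 in untreated cells. Besides Vcam1, Ccn3, a matricellular protein, was lower (-0.71, adjusted p = 0.0011). Fibronectin, Fn1, chosen after its value was seen, was at 0.56 on the deposited scale (adjusted p = 1.2e-04), at 0.09 after quantile normalization (adjusted p = 0.0483) and at 0.36 after cyclic loess normalization (adjusted p = 1.7e-04). The size of the Fn1 change thus depends on the scaling.

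Partners of laminin in the basement membrane had 5 of 17 tested higher and 4 lower, beside 20.7% higher and 14.5% lower over all genes tested, and their median log2 change of 0.03 was that of all genes. Fibulin-2, Fbln2, rose by 0.91 (adjusted p = 7.7e-07), with 577, 595 and 580 in pyruvate and 296, 315 and 296 in untreated cells. Hemicentin-1, Hmcn1, fell by 0.90 (adjusted p = 0.0014), with a pyruvate mean of 20.1 below the filter value. The laminin-related guidance protein Ntn1 fell by 0.73 (adjusted p = 7.8e-06) and Megf9, a membrane protein with laminin-like EGF repeats, by 0.50 (adjusted p = 0.0079). Among nidogens and basement membrane collagens, Nid1 (0.34, adjusted p = 0.0011) and Col18a1 (0.41, adjusted p = 8.1e-05) were higher, and Col4a1 (-0.08, adjusted p = 0.25) and Col4a2 (0.03, adjusted p = 0.69) did not pass, all 4 chosen after their values were seen. After cyclic loess normalization Col4a1 was called lower (-0.15, adjusted p = 0.026).

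Another list held the dystroglycan complex and laminin receptors other than integrins, so not every gene in it encodes a laminin receptor. It had 8 of 19 tested higher and 3 lower, with a median log2 change of 0.08. Over all genes tested, 20.7% were higher and 14.5% lower. The number lower was thus near the share over all genes. The sarcoglycan Sgce rose by 0.85 (adjusted p = 5.1e-06) and the heparan sulfate proteoglycan Sdc3, syndecan-3, by 0.81 (adjusted p = 2.4e-05). Sntb1, a syntrophin of the dystrophin complex, fell by 0.70 (adjusted p = 7.7e-04). Dag1, which encodes dystroglycan itself and was chosen after its value was seen, fell by 0.35 (adjusted p = 0.0030), with mean signals of 774 in pyruvate and 986 in untreated cells. Another sarcoglycan of this complex, Sgca, also named after its value was seen, rose by 0.44 (adjusted p = 0.0027). Rpsa, the ribosomal protein also described as a laminin receptor, was at 0.52 on the deposited scale (adjusted p = 7.6e-05), at 0.04 after quantile normalization (adjusted p = 0.34) and at 0.32 after cyclic loess normalization (adjusted p = 1.2e-04), so its call depends on the scaling. Its processed pseudogenes make the signal uncertain.

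Tetraspanins and other partners of integrins had 12 of 22 tested higher and 3 lower, with a median log2 change of 0.20. Over all genes tested, 20.7% were higher and 14.5% lower, so the number lower was near that share. Cav1, caveolin-1, rose by 0.57 (adjusted p = 2.2e-05), Tspan4 by 0.55 (adjusted p = 4.4e-05), Sharpin, an inhibitor of integrin activation, by 0.52 (adjusted p = 2.4e-04) and Cd53, a tetraspanin known from leukocytes, by 0.50 (adjusted p = 7.4e-04). Cd53 gave 194, 206 and 228 on pyruvate arrays and 140.3, 139 and 148 on untreated arrays, with no overlap. The part of other cells in these changes was not tested.

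**Figure D5:**
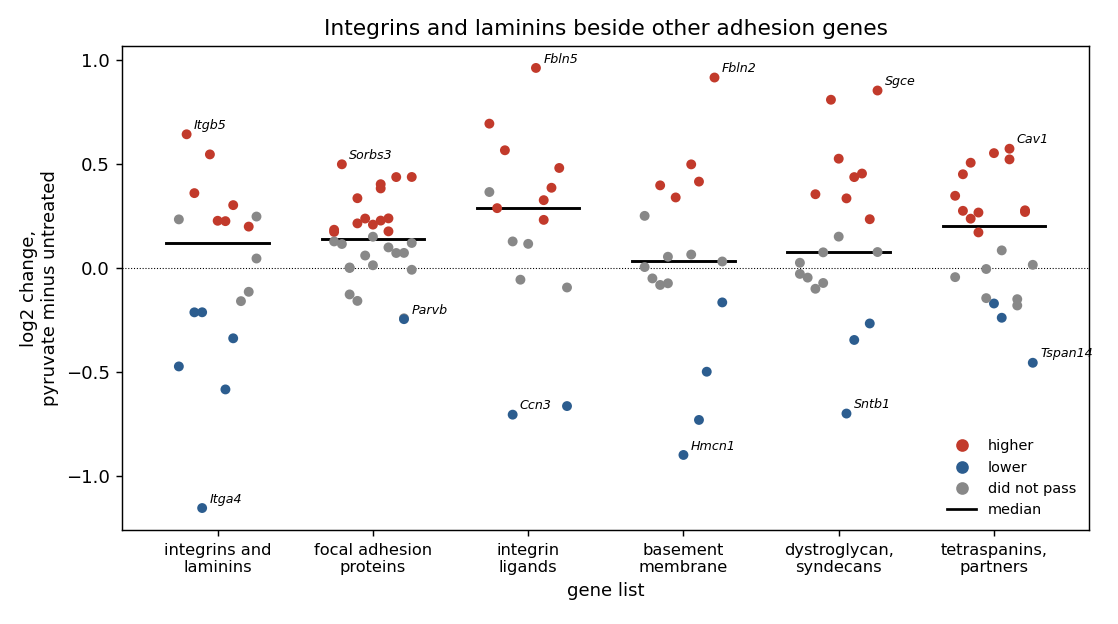
Log2 change (pyruvate minus untreated) of each tested gene, for integrins and laminins and for 5 lists of adhesion genes; points are genes, red called higher, blue called lower and grey not passed, black bars are medians, and the highest and lowest gene of each list is named. The medians run from 0.03 for basement membrane genes to 0.29 for integrin ligands, with 0.12 for integrins and laminins, and Itga4 at -1.16 is the lowest point shown.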

How the data were processed

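Each of the 6 samples had 1 array. The deposited values are MAS5 signals, intensity on a linear scale, per the submitters' processing notes; the sources used here give neither version nor settings. The authors had scaled all arrays to a common trimmed mean of 150 (lowest and highest 2% left out), which was kept, so the signals do not show total RNA per cell. Of 45101 probe sets 64 were controls and were left out. Of the rest, 34945 carried 1 symbol in the platform annotation, 932 several and 9160 none; names were checked through Entrez identifiers against RefSeq (GRCm38.p6), and 34741 matched. A gene was read on its brightest probe set. Signals were taken as log2(signal + 16), which understates the folds of dim genes. Probe sets at or above the median were fitted in limma 3.58.1 (R 4.3.3; eBayes with trend), pyruvate minus untreated, with Benjamini-Hochberg adjustment over 22519 probe sets; the step was tested on simulated data. All adjusted p-values come from this fit unless a setting is named. All members were named; of each adhesion list, up to 4 genes past the threshold with the largest absolute change were named, and others are marked. The members and lists were chosen with earlier results of these data known. Alternatives were other pseudocounts, filters, normalizations, variance models, array weights, a replicate block, the mean over probe sets and each array left out. Arrays carry no read depth, and their number limits the precision. Same-numbered arrays did not deviate together (r from -0.0088 to 0.0210), so the numbers were not taken as pairs. Figures were drawn with matplotlib 3.10.9.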

Additional observations from a re-analysis of the deposited data

How the results depend on the processing

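Over 18 alternatives no integrin or laminin gene changed direction while called. Of the 13 called genes, Itga4, Itgb5, Itgb7 and Itgb8 passed in every alternative in which they were tested, and the other 9 missed the threshold in at least 1. The number of integrin and laminin genes called lower was 6. It was 3 without the signal filter, where Itga6, Lama2 and Lama5 no longer passed among more probe sets tested. Without the variance trend it was 2, and Itga6, Itga7, Lama2 and Lama5 no longer passed. Over all probe sets, 7250 were called in the main fit, 5791 without the filter and 6189 without the trend. The number of integrin and laminin genes called higher stayed between 5 and 8. With each array left out in turn, 5 to 7 were higher and 4 to 5 lower. Averaged over a gene's probe sets above the filter, Itgb1 was at 0.02 (adjusted p = 0.84) and Lama5 at -0.04 (adjusted p = 0.77). Lamb1 passed in that setting, at 0.24 (adjusted p = 0.023). With the replicate number as a block, 7 were higher and 6 lower, with Lamb1 passing (adjusted p = 0.024) and Lamb2 not (adjusted p = 0.066), and 6917 probe sets were called in all, against 7250 without it. Among focal adhesion proteins, 14 higher and 1 lower became 9 higher after cyclic loess normalization, and 0 lower with a pseudocount of 1, without the signal filter, with median centring, without the variance trend and with the replicate block; with each array left out, 9 to 14 were higher and 0 to 1 lower. The stricter signal filter left 1 integrin ligand and 2 basement membrane genes lower, with fewer genes tested. Cyclic loess gave 5 tetraspanins and partners lower; with each array left out, the counts were 11 to 12 higher and 2 to 4 lower. Shares over all genes were not taken for these alternatives, so the list counts cannot be set against them. The cause was not tested where none is given. Signals near the floor of the arrays limit the 15 genes below the filter, and also the fold of Itga4, whose pyruvate mean was under the filter value.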
